A study of Mus musculus with 6 samples.

Results

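Netrins and their receptors were followed across the mandibular arches of 3 Tbx1 null and 3 wild-type arrays. The group holds 10 of the 19938 genes tested: the secreted ligands Ntn1, Ntn3, Ntn4 and Ntn5, the receptors Dcc and Neo1, and the receptors Unc5a, Unc5b, Unc5c and Unc5d. They were chosen by name, and each was read from the probe set that carries its symbol alone and has the highest mean over the 6 arrays. All 10 were measured. The family was proposed with the decrease of Ntn1 in these data already known, so the values of Ntn1 are given as a description.

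The mandibular arch is the lower part of the first pharyngeal arch, from which the lower jaw and its muscles form. Both groups were C57BL/6 embryos at embryonic day 9.5, either Tbx1+/+ (wild type) or Tbx1-/- (Tbx1 null), and the labels name no other allele or agent. The product of Tbx1 is a transcription factor with a T-box DNA-binding domain, active in the pharyngeal region. To obtain enough RNA, arches of 3 embryos per genotype were pooled, and whether the 3 arrays of a genotype came from separate pools is not stated in the series description.

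Netrins are secreted proteins related to laminins. Bound to DCC, a receptor named for its loss in colorectal cancer, or to its relative neogenin, the product of Neo1, they attract growing axons and moving cells. UNC5 receptors, alone or together with DCC, turn that response into repulsion. DCC and the UNC5 proteins are also called dependence receptors, because they can promote cell death where no netrin is bound. Netrin 1 is best known from the floor plate of the neural tube, and Unc5b from the tip cells of growing vessels.

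All values below are log2 expression levels, on which a difference of 1 is a factor of 2, and changes are Tbx1 null minus wild type. Array medians lay between 7.98 and 8.04, and the median standard error (SE) of a change was 0.058 over all genes. Tbx1 itself was 3.83-fold lower in the null arrays (log2 change -1.94, limma adjusted p = 0.00068), at levels of 9.39 to 9.63 that were still above the array medians. The labels do not say which part of the gene the allele lacks, nor where its probes lie. The limma threshold of 0.05 on adjusted p was passed by 32 genes (0.16%), 15 of them lower and 17 higher in Tbx1 null. Leaving out wild type replicate 1, 2 or 3 cut that count to 13, 3 or 20, and leaving out Tbx1 null replicate 1, 2 or 3 cut it to 3, 3 or 10. The mean level of 3 Y-linked genes was 5.73 on Tbx1 null replicate 3 and between 8.57 and 9.85 on the other 5 arrays. The arrays of a genotype thus did not all hold the same RNA, and the p-values measure only the spread between these arrays.

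The 10 markers of arch mesenchyme derived from neural crest all lay above the array medians on every array. Their summed level lay between 15.09 and 15.13 in wild type and between 15.23 and 15.29 in Tbx1 null. A summed level is the log2 of the sum of unlogged levels, so bright genes weigh most. In bulk tissue, fewer cells of a type and less RNA per cell cannot be told apart.

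Ntn1 was the only member that passed the threshold, and it fell. Of the 10 members 1 was called lower, where 0.0752% of all genes were, and 0 were called higher, where 0.0853% were. At an unadjusted limma p under 0.05, 2 members were lower (Ntn1 and Unc5a) and 3 higher (Ntn4, Unc5b and Unc5c), where 3.94% and 5.5% of all genes were. Those 5 members are also the ones whose arrays did not overlap between the genotypes, a state that 15.4% of all genes shared. Nothing is read from these shares, as the family was picked with results of this comparison in view. The median log2 change was 0.03 over the members and -0.0061 over all genes.

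Netrin 1 (Ntn1, probe set 10387170, Entrez gene 18208), the founding netrin of vertebrates, had levels of 9.03, 8.93 and 9.03 on wild type replicates 1, 2 and 3. On Tbx1 null replicates 1, 2 and 3 it had levels of 8.23, 8.48 and 8.47. Every null array lay below every wild-type array, with a gap of 0.46 between the nearest arrays of the genotypes, and null replicate 1 was the lowest of all. The means were 8.998 ± 0.056 (SD, n = 3) in wild type and 8.39 ± 0.14 in Tbx1 null. The change was -0.61 (SE 0.075, 95% confidence interval -0.78 to -0.43), 1.52-fold lower, with a limma adjusted p of 0.0422 over all genes.

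The direction held with any array left out, but the call did not. The limma adjusted p of Ntn1 was 0.1, 0.145 or 0.114 when wild type replicate 1, 2 or 3 was left out. It was 0.0796, 0.166 or 0.1 when Tbx1 null replicate 1, 2 or 3 was left out. The change stayed between -0.65 and -0.53 in these 6 fits, which each have fewer arrays. The call was also lost when every probe set was tested (limma adjusted p = 0.132).

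**Figure D1:**
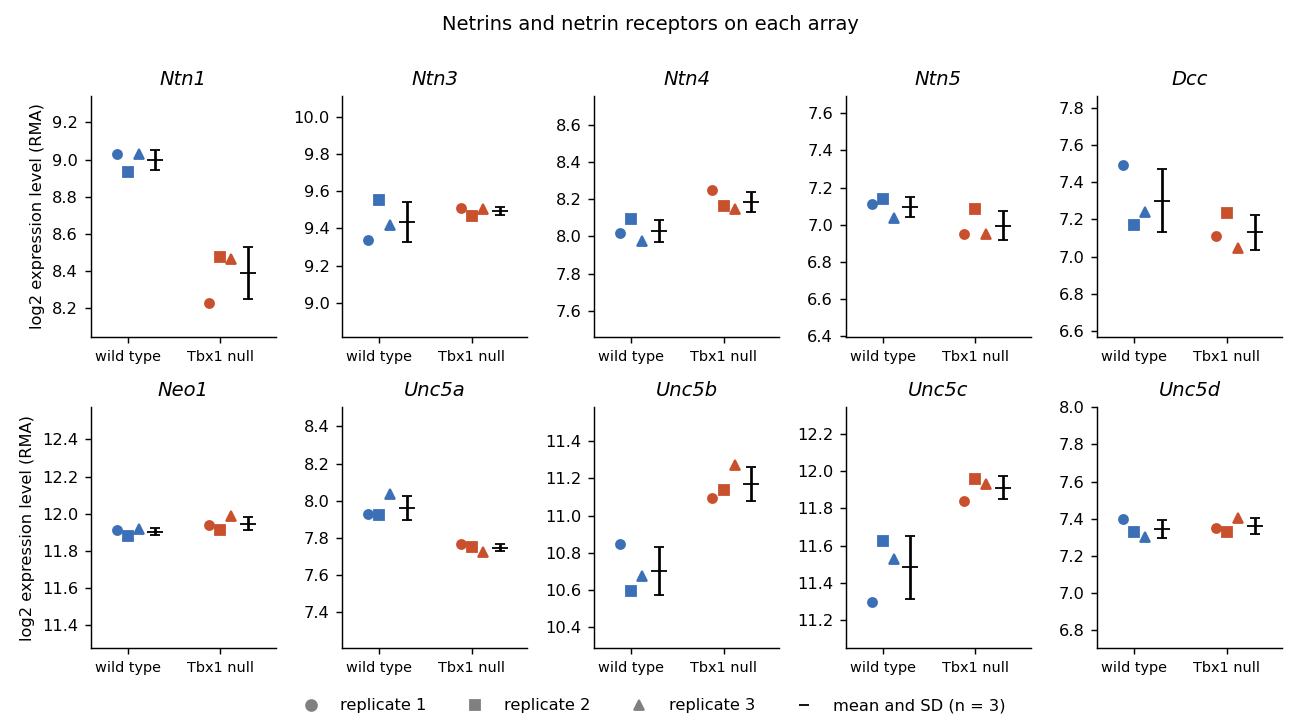
Log2 expression level of each of the 10 members on each of the 6 arrays, with the marker shape giving the replicate number and the bar the mean and SD of 3 arrays. Each panel spans the same range around its own gene, so that distances but not heights can be compared. Ntn1 and Unc5a lie lower and Unc5b, Unc5c and Ntn4 higher on all null arrays than on any wild-type array.

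The other 3 netrins did not pass. Netrin 4 (Ntn4), a basement membrane netrin that binds laminin, had levels of 8.02, 8.09 and 7.97 in wild type and 8.25, 8.17 and 8.15 in Tbx1 null. Its null arrays all lay above its wild-type arrays, by a gap of only 0.053, and the change was 0.16 (95% interval 0.039 to 0.28, limma adjusted p = 0.377). The unadjusted interval for Ntn4 lies above 0 and that for Ntn1 below it. Without Tbx1 null replicate 1, the Ntn4 interval was -0.012 to 0.27 and took in 0.

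Netrin 3 (Ntn3), a close relative of netrin 1, had levels of 9.34, 9.55 and 9.42 in wild type and 9.511, 9.467 and 9.503 in Tbx1 null. The null arrays lay within the wild-type range, and the change was 0.058 (95% interval -0.082 to 0.2). Leaving out wild type replicate 1 gave 0.0094 and leaving out wild type replicate 2 gave 0.12. The change was 0.018 and 0.032 under quantile normalisation again and median centring, and it turned to -0.019 with array weights. For netrin 5 (Ntn5) the levels were 7.11, 7.14 and 7.03 in wild type and 6.95, 7.09 and 6.95 in Tbx1 null. These overlap, with a change of -0.1 (95% interval -0.23 to 0.028). The intervals allow a decrease of at most 1.06-fold for Ntn3 and 1.17-fold for Ntn5. Ntn5 lay below the array medians, and changes of such dim probe sets tend to be understated. Dcc and Unc5d also lay below the array medians, as did Unc5a on every array except wild type replicate 3.

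**Figure D2:**
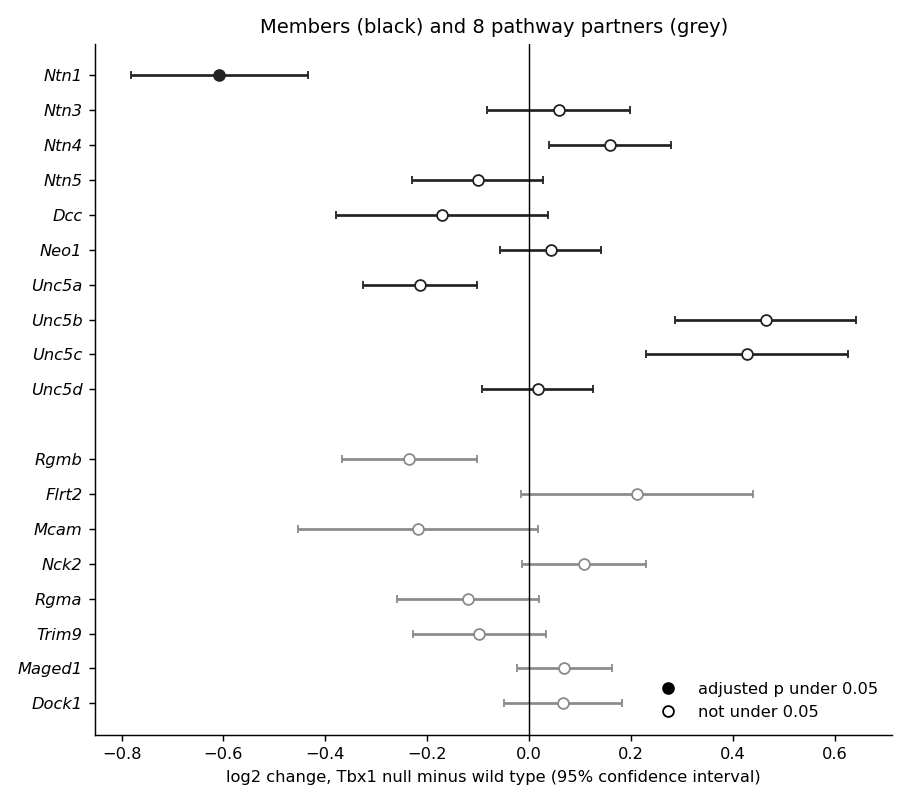
Log2 change (Tbx1 null minus wild type) with its 95% confidence interval for the 10 members, in black, and for the 8 pathway partners of lowest p, in grey. Ntn1 at -0.61 is the 1 filled point, past an adjusted p of 0.05, and Unc5b and Unc5c stand at 0.46 and 0.43.

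Among the receptors that mediate attraction, neither passed. Dcc (probe set 10459671) had levels of 7.49, 7.17 and 7.24 in wild type and 7.11, 7.23 and 7.05 in Tbx1 null. Wild type replicate 1 stood above the other arrays, which overlapped, and the change was -0.17 (95% interval -0.38 to 0.038, limma adjusted p = 0.626). Without that array it was -0.074, and with array weights -0.064. Dcc had the widest spread within a genotype of the 10 members, with a pooled SD of 0.14. Neogenin (Neo1), which also binds repulsive guidance molecules and takes part in BMP signalling, was the steadiest, with a pooled SD of 0.03. Its levels were 11.91, 11.88 and 11.92 in wild type and 11.94, 11.91 and 11.99 in Tbx1 null. The change of 0.043 had a 95% interval of -0.056 to 0.14, which leaves room for an increase of at most 1.103-fold and a decrease of at most 1.04-fold. It was 0.023 without Tbx1 null replicate 3 and 0.016 under median centring.

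Of the 4 UNC5 receptors, Unc5b and Unc5c had higher and Unc5a lower values in Tbx1 null, none past the threshold over all genes. Unc5b (probe set 10369388, Entrez gene 107449), the UNC5 receptor of vessel endothelium, had levels of 10.84, 10.59 and 10.67 in wild type and 11.09, 11.14 and 11.27 in Tbx1 null. All null arrays lay above all wild-type arrays, with a gap of 0.25. The change was 0.46 (SE 0.077, 95% interval 0.29 to 0.64), 1.38-fold higher, with a limma adjusted p of 0.0845. With an intensity trend and robust variances, and with array weights, the limma adjusted p was 0.02 and 0.0106. Over all genes, 96 and 334 genes passed in these settings, against 32 in the reported fit. In the other 13 alternatives Unc5b did not pass, with limma adjusted p-values up to 0.309.

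Unc5c (probe set 10496519, Entrez gene 22253), a receptor needed for the path of cerebellar granule cells and of spinal axons, had levels of 11.29, 11.63 and 11.53 in wild type. In Tbx1 null they were 11.84, 11.96 and 11.93. The genotypes did not overlap, with a gap of 0.21, and wild type replicate 1 was the lowest array. The change was 0.43 (SE 0.085, 95% interval 0.23 to 0.63), 1.35-fold higher, with a limma adjusted p of 0.141. Without wild type replicate 1 it was 0.33 and without wild type replicate 2 it was 0.5.

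Unc5a (probe set 10405355, Entrez gene 107448), a receptor of the nervous system, went the other way. Its levels were 7.93, 7.93 and 8.04 in wild type and 7.77, 7.75 and 7.73 in Tbx1 null. The null arrays lay within 0.04 of each other and below all wild-type arrays, with a gap of 0.16. The change was -0.21 (SE 0.048, 95% interval -0.33 to -0.1), 1.16-fold lower, with a limma adjusted p of 0.184. The unadjusted intervals of Unc5a and of Unc5b or Unc5c do not overlap each other, but none of these genes passed the threshold over all genes.

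Unc5d, a receptor of the migrating neurons of the cortex, had levels of 7.40, 7.33 and 7.30 in wild type and 7.35, 7.33 and 7.41 in Tbx1 null. The arrays overlapped, and the change of 0.017 had a 95% interval of -0.092 to 0.13. It was the 1 member with a second probe set of its own, whose change was -0.017 (95% interval -0.15 to 0.12) when every probe set was tested. The direction of Unc5d also turned under centring on the median and with some arrays left out, always within 0.01 of 0.

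Unc5a, Unc5b and Unc5c are the receptors whose arrays did not overlap between the genotypes, so the sequences before their starts are shown. They are the 250 bases upstream of the start in RefSeq's promoter table for GRCm38.p6, which also held Ntn3, Ntn4, Ntn5 and Neo1. It held no window for Ntn1, Dcc or Unc5d, so these were not searched. Capitals mark AGGTGT, the core letters of the T-box half-site, wherever they were found on either strand. The Unc5a stretch lies at chr13:54949161-54949410 on the plus strand, the Unc5b stretch at chr10:60831582-60831831 on the minus strand and the Unc5c stretch at chr3:141465314-141465563 on the plus strand.
Unc5a: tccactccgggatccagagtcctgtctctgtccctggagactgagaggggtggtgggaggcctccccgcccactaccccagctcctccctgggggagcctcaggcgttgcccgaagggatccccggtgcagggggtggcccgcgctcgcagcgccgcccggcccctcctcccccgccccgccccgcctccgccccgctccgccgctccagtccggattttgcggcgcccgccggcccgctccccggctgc
Unc5b: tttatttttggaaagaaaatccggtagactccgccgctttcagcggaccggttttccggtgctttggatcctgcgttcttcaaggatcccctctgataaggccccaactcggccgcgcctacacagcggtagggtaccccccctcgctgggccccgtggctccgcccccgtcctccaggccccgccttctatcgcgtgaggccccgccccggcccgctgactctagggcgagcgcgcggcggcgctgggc
Unc5c: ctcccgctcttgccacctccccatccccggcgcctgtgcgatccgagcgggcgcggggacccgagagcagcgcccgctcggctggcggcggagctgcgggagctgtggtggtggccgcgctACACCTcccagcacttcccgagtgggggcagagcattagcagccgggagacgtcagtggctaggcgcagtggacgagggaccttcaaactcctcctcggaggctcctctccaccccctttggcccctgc

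The core letters occur once in Unc5c, read from the other strand as ACACCT, from 129 to 124 bases before the start, and in none of the other 6 members' windows of 300 bases (250 before and 50 after the start). Of all 32851 windows in the table, 13.7% hold them on either strand. The longer half-site AGGTGTGA, which contains the core and was also searched on both strands, is in 1.28% of all windows and in 0 of the 7. A match describes letters and shows no binding. CpG dinucleotides were frequent: 6 of the 7 windows had more than the median count of 7, with 37 in Unc5a, 36 in Unc5b, 24 in Unc5c and 54 in Neo1. Ntn5 had 3.

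Partners of the pathway were read from a list of 43 genes: other ligands and co-receptors of the netrin receptors, and proteins that carry their signal. Of these 37 were measured and 0 passed the limma threshold in either direction. At an unadjusted limma p under 0.05 there was 1 lower and 0 higher, where 3.94% and 5.5% of all genes were. Values lay between -0.23 and 0.21, with a median of 0.0034 against -0.0061 over all genes.

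The 1 lower gene was Rgmb, a repulsive guidance molecule and ligand of neogenin. Its levels were 10.20, 10.08 and 10.22 in wild type and 10.001, 9.86 and 9.93 in Tbx1 null, which do not overlap. The change was -0.23 (SE 0.057, limma adjusted p = 0.221). Its relative Rgma had a change of -0.12 with overlapping arrays. Flrt2, a membrane ligand of UNC5 receptors, had a change of 0.21 (95% interval from -0.017), and Mcam, an adhesion molecule also described as a netrin 1 receptor, of -0.22. Among intracellular partners, the adaptor Nck2 had a change of 0.11, the DCC-bound ubiquitin ligase Trim9 of -0.097, the UNC5A-binding protein gene Maged1 of 0.069 and the Rac activator Dock1 of 0.067. None of these passed.

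The profile of Ntn1 over the 6 arrays was set against that of every other gene, as the root-mean-square difference between deviations from each gene's own mean. The 5 nearest were Car6, Car2, Foxe3, Vstm2b and Chrdl1, at distances of 0.074, 0.075, 0.092, 0.094 and 0.099 on the log2 scale. Car6 and Car2 encode carbonic anhydrases, Foxe3 a forkhead factor of the lens and Chrdl1 a secreted BMP antagonist. All are lower in Tbx1 null, which the measure requires, with changes of -0.64, -0.69, -0.53, -0.5 and -0.52. Of these, Foxe3 and Car2 passed the threshold (limma adjusted p = 0.0133 and 0.0466).

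Foxe3 had levels of 9.53, 9.45 and 9.48 in wild type and 8.94, 8.93 and 9.01 in Tbx1 null. Car6, Car2, Vstm2b and Chrdl1 shared with Ntn1 the lowest value on Tbx1 null replicate 1, at 6.21, 9.87, 9.39 and 8.41. The measure favours this too, and Chrdl1 was nearly as low on Tbx1 null replicate 2 (8.42). In Foxe3 the lowest array was Tbx1 null replicate 2.

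**Figure D3:**
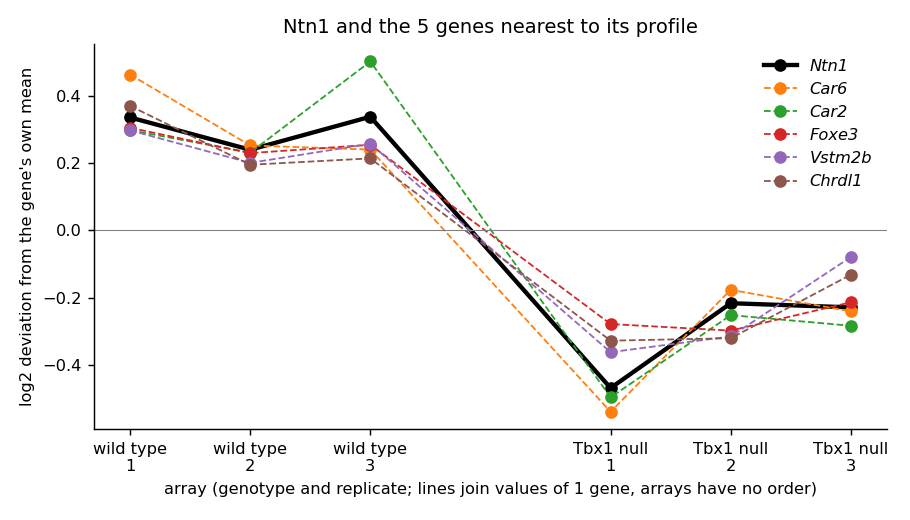
Deviation of log2 level from each gene's own mean over the 6 arrays, for Ntn1 (solid black) and its 5 nearest genes (dashed). All 6 genes lie above 0 on the wild-type arrays and below 0 on the null arrays, and all but Foxe3 are lowest on Tbx1 null replicate 1. Both likenesses are favoured by the way the genes were picked.

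Markers of tissues that carry netrins or their receptors were read beside these values. Of all 19938 genes tested, 9265 had changes above 0 and 10673 below. Beside Ntn1, the floor plate list had 5 of 7 measured genes below 0 and 2 above. Its summed level, with Slit1 included, was 12.15 to 12.30 in wild type and 11.81 to 11.94 in Tbx1 null. Its 1 called gene was Slit1, a guidance ligand that also stands among the Slit genes. The others, which did not pass, were Nkx2-9 at -0.46, Spon1 (F-spondin) at -0.36, Ferd3l at -0.15, Lmx1b at -0.15, Shh at 0.032 and Foxa2 at 0.079. Apart from Slit1 and Spon1 these were named after their values were seen. The part of floor plate tissue in the Ntn1 result was not tested.

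Neural tube markers had 0 of 10 genes called, 7 below 0 and a summed level of 11.94 to 12.02 in wild type and 11.89 to 11.97 in Tbx1 null. Pax6 and Nefl, a progenitor and a neuron gene, had changes of -0.22 and -0.3. Migratory crest and glial markers had 4 of 5 below 0, with Ngfr called (-0.7, limma adjusted p = 0.0142) and Sox10 at -0.85 (SE 0.31). Their summed level was 11.98 to 12.81 in wild type and 11.77 to 12.05 in Tbx1 null, which overlap. Core mesoderm markers had 6 of 7 below 0, with Tbx1 and Lhx2 called, and a summed level of 12.85 to 13.12 in wild type and 12.06 to 12.36 in Tbx1 null. Without Tbx1, the targeted gene, the sums were 12.21 to 12.48 and 11.82 to 12.12. The part of these cell types in the Ntn1 and Unc5a values was not tested.

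Beside Unc5b, the endothelial list had 0 of 10 genes called and 8 below 0. Its summed level was 13.97 to 13.98 in wild type and 13.84 to 14.03 in Tbx1 null, so the null range took in the wild-type range, and its 2 genes of lowest p were Esam at -0.12 and Tek at -0.2. Beside Unc5b and Unc5c, crest mesenchyme markers had 0 of 10 called, 8 above 0 and 5 whose arrays did not overlap, all 5 higher in Tbx1 null. Over all 19938 genes tested, 1666 were higher without overlap. Among the 5 markers, Prrx2 had a change of 0.23 and Msx1 of 0.44 (limma adjusted p = 0.116 and 0.239). The part of crest mesenchyme in the Unc5b and Unc5c values was not tested. Otic vesicle markers had 1 of 7 called, Tbx1 itself, with 4 above 0, 3 below 0 and a median of 0.034. Next by limma p were Sox10 at -0.85 and Pax8 at 0.79, and neither passed. Pharyngeal endoderm markers had 0 of 9 called and a median of -0.026, with Nkx2-3 at 0.28 and Sox17 at -0.18.

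**Figure D4:**
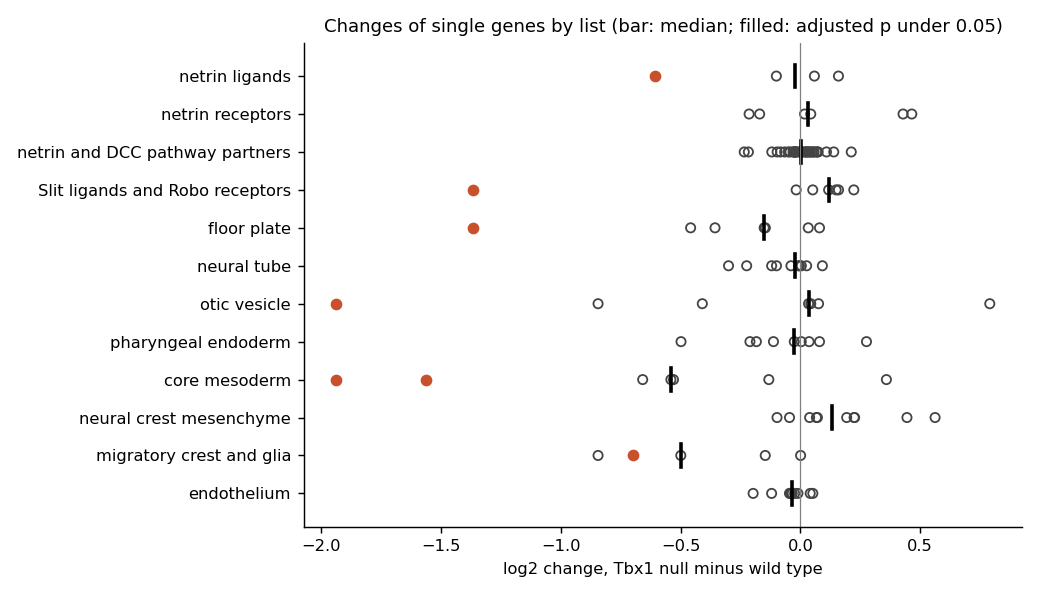
Log2 change of each measured gene (Tbx1 null minus wild type) by list, with a bar at the list's median and filled points past an adjusted p of 0.05. The netrin receptors run from -0.21 to 0.46, the 37 pathway partners from -0.23 to 0.21, and the endothelial markers lie near 0.

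Slits and their Robo receptors, the other midline guidance family, gave 1 called gene of 7 and the netrin family 1 of 10. Of all genes 0.16% were called. Slit1 fell from 9.002 ± 0.06 (SD, n = 3) to 7.63 ± 0.071, with a change of -1.37 against -0.61 for Ntn1. The other Slit genes had changes of 0.16 (Slit2) and 0.22 (Slit3, with no overlap), and Robo1, Robo2, Robo3 and Robo4 of 0.12, 0.15, -0.018 and 0.051. In both families the called gene was a ligand and was lower. Nothing is read from this, as both families were chosen with results of these data known. No Robo gene reached the size of the Unc5b or Unc5c values, and the difference between the families was not tested.

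**Figure D5:**
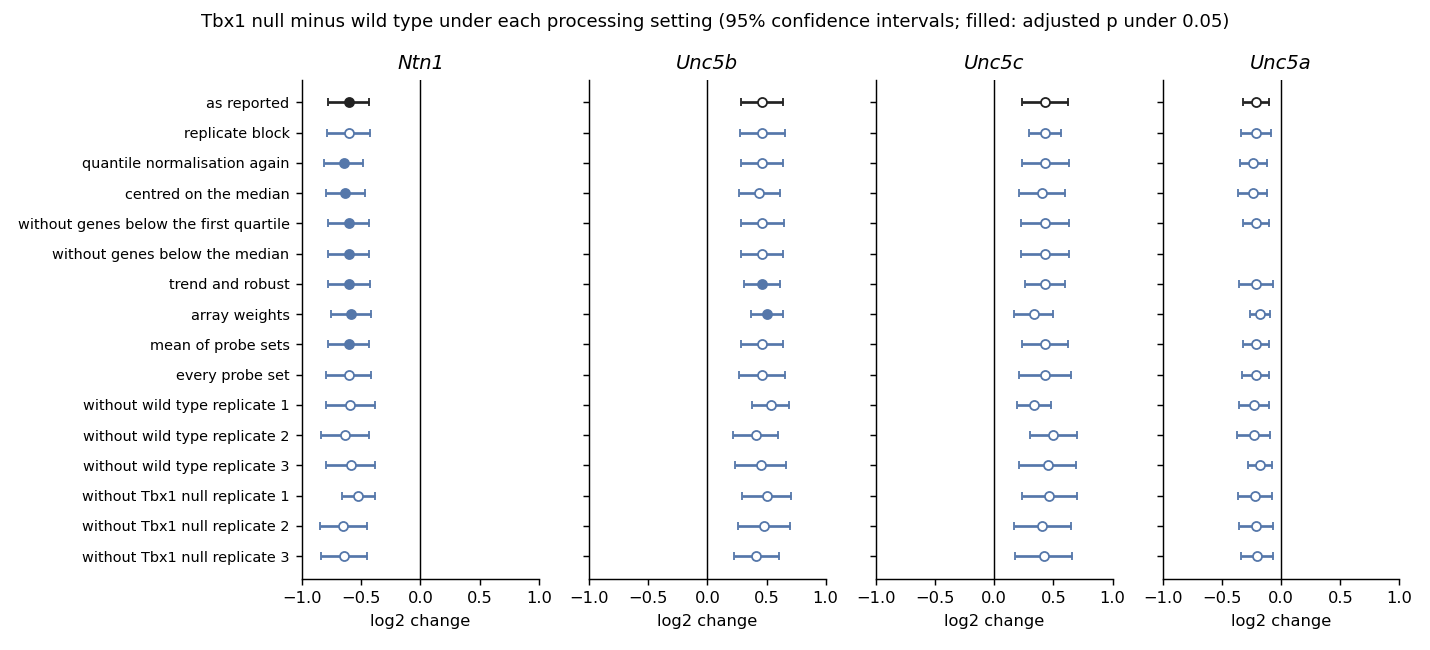
Log2 change with its 95% confidence interval for Ntn1, Unc5b, Unc5c and Unc5a as reported and under each other processing setting, with filled points past an adjusted p of 0.05. Ntn1 stays between -0.65 and -0.53 and Unc5b between 0.41 and 0.54, while the filled points come and go. Unc5a has no value without genes below the median.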

How the data were processed

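Pooled arch RNA was measured on 6 Affymetrix Mouse Gene ST 1.0 arrays, 3 per genotype. The authors deposited 1 log2 level for each probe set. Per the submitters' processing notes, RMA and Affymetrix Expression Console 1.1 were used. That the scale is log2 was judged from the range of 3.63 to 14.6. RMA draws array distributions together, so a shift shared by most genes cannot be seen. Control probes were not used here, so signal over background is not judged.

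Of 35556 probe sets 21789 have 1 symbol in the platform annotation, giving 19938 genes with 1 probe set each. Null and wild-type arrays were compared by lmFit and eBayes of limma 3.58.1 (R 4.3.3), two-sided and without covariates, with Benjamini-Hochberg adjustment over all genes. The code was checked on data simulated from limma's own variance model, which does not show how the fit performs on these arrays. The table held 0 columns of other samples, and 0 pairs of arrays were identical.

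Members and lists were chosen with earlier results of these data known. Named genes are all members and all Slit and Robo genes, the 8 partners and 2 genes per marker list of lowest p, and the 5 profiles nearest to Ntn1, leaving out predicted, small RNA and olfactory receptor genes. The other floor plate genes and Pax8 were added after their values were seen. List genes with no probe set of 1 symbol are not analysed here. Alternatives were a replicate block, leaving out each array, other scalings, filters, variance models, array weights and probe set rules.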

Additional observations from a re-analysis of the deposited data

How the results depend on the processing

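Ntn1 kept its direction in all 15 alternatives run and passed the threshold in 7 of them. With the replicate number as a block its change was -0.61 and the limma adjusted p 0.097, and with every probe set tested -0.61 and 0.132, so 0 members were called lower in both. With 1 array left out the change ran from -0.65 to -0.53, and 0 members were called lower in each case. The count of members called higher became 1, Unc5b, with an intensity trend and robust variances and with array weights. The count of 32 genes called became 6 with the replicate block, 96 with trend and robust variances, 334 with array weights, 4 with every probe set, and 3 to 20 with 1 array left out. Ntn3 turned to -0.019 under array weights, and Unc5d to -0.0094 under median centring and -0.00011 with the mean of its probe sets, and between -0.0057 and 0.043 with 1 array left out. Of the members, 6 rather than 5 had no overlap after quantile normalisation again or median centring. Ntn4, Ntn5, Dcc, Unc5a and Unc5d have no value without genes below the median. The labels give only a replicate number, and deviations of same-numbered arrays correlated at -0.045, 0.26 and 0.15. Tbx1 null replicates 2 and 3 correlated best with the wild-type array of their own number. Tbx1 null replicate 1 correlated best with wild type replicate 2 (0.25). So few arrays cannot settle whether the numbers pair them. The cause of these shifts was not tested. The number of arrays limits the precision: the smallest change called over all genes was 0.37.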
